A study of Mus musculus with 16 samples.

Results

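Donor CD4+ T cells taken from the ovary were compared with donor CD4+ T cells taken from the spleen, both after an allogeneic haematopoietic stem cell transplantation in mice. The comparison rests on 4 of the 16 arrays of the series, chosen by their titles: 2 of ovarian and 2 of splenic cells, which is every array these groups have. Per the labels, all samples came from female mice, the strain background is C57BL/6, and no allele or drug is named. Age, the strain of the recipients and the time after transplantation are not given in the sources used here. Up to 10000 cells per sample were sorted in 2 rounds, and the labels do not say whether the replicates came from separate animals or pools. The p-values therefore measure only the spread between these samples, which may be technical. The other 12 arrays hold ovarian CD8 cells (4), splenic CD8 cells after allogeneic (3) and after syngeneic transplantation (3), and splenic CD4 cells after syngeneic transplantation (2), in which donor and host are genetically alike.

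In graft-versus-host disease, T cells of the graft recognise the recipient's tissues as foreign and enter organs that resting T cells rarely visit. CD4 cells, the helper lineage, act there largely through cytokines and chemokines that instruct other cells. A T cell that leaves the blood and lymphoid organs typically loses receptors that return it to lymph nodes, such as CCR7, and gains genes that hold it in tissue. The ovary itself makes steroid hormones from cholesterol, and its macrophages, granulosa, theca and stromal cells are the possible neighbours of an infiltrating T cell.

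Levels are given as the log2 signal of an Agilent one-colour array relative to that array's 75th percentile, so a level of 0 is the 75th percentile and 1 unit is a factor of 2. Of 20585 features tested, 11710 carried a gene symbol, and the remaining 8875 were unnamed probes. A gene is said to have risen or fallen in the ovary only where a limma fit across all 16 arrays gave a Benjamini-Hochberg adjusted p under 0.05. By that rule 292 features (1.42%) differed, of which 134 (0.651%) were higher and 158 (0.768%) lower in ovarian cells, and 171 of them had a symbol (100 higher, 71 lower). Both ovarian arrays lay on the same side of both splenic arrays for 291 of the 292, and for 35.3% of all features. The other was Birc5, whose spot on ovarian replicate 1 was an outlier and was left out. At an unadjusted p under 0.05 there were 3639 features, 2022 of them among the 11710 with a symbol, and 6090 of the 11710 had a value above 0; the counts of list members are to be read against these. An exact permutation test of 2 arrays against 2 cannot give a p below 0.333.

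The signal was weakest on replicate 2 of both groups: the 75th percentile was 133 and 68.2 units on the ovarian arrays and 141 and 67.6 on the splenic arrays, against 156 to 449.7 on the other 12 arrays. Replicate 1 of both groups lay on slide 1 and replicate 2 on slide 2. With the slide as a block 539 features were called; on slide 1 alone, where the spread came from the other groups, 2395 were called, and on slide 2 alone 0 (2413 at an unadjusted p under 0.05). Fitting the 4 arrays by themselves called 0 features (1016 at an unadjusted p under 0.05). Each call thus rests on the spread of the other groups as well. Splenic replicate 1 stood apart: 488 features were there more than 3 log2 units under each of the other 3 arrays, against 2 features for splenic replicate 2, 58 for ovarian replicate 1 and 5 for ovarian replicate 2. None of those 488 was among the 292 calls (0 of 292, by the same limma fit). They were selected by a wide gap between the splenic replicates, which adds to the spread in that fit and makes a call unlikely. The 0 therefore does not show that the calls were free of splenic replicate 1. Without splenic replicate 2 the calls numbered 2173, without ovarian replicate 1 they numbered 440, and 52 features (19 higher, 33 lower) were called whichever single array was left out.

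The sorted cells carried the markers of their label. Cd4 stood at 5.56 and 5.09 on the ovarian arrays and at 4.66 and 4.97 on the splenic arrays, and the T-cell receptor chains Cd3d, Cd3e and Cd3g lay between 6.85 and 7.65 on all 4. Cd8a was not well above background on any of the 4 arrays, and Cd8b1 lay between -2.82 and -1.65. Of 16 T-cell identity genes tested by limma, 0 were called and 1 had an unadjusted p under 0.05 (median difference 0.03).

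Some genes of the naive and lymphoid-homing state fell in the ovary. Of 24 tested genes of naive and memory T cells 5 fell and 0 rose (median difference -0.60, against 0.02 over all 11710 features with a symbol), and 21 of the 24 had a value below 0. Those that fell included Il7r, Dapl1, Nsg2 and Tcf7. Of 15 lymphoid homing and egress genes 3 fell, Cxcr4 and Ccr6 among them, and 0 rose.

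Il7r, the receptor through which interleukin 7 keeps resting T cells alive, stood at 4.47 and 3.49 in ovarian and at 6.00 and 5.82 in splenic cells. Both ovarian values lay more than 1 unit under both splenic ones, and the fitted difference was -1.93 ± 0.29 (SE, n = 2 and 2; limma, adjusted p = 0.0106). Cxcr4, which binds CXCL12 and holds cells in marrow and lymphoid tissue, stood at 0.80 and 1.24 against 2.71 and 2.93, a difference of -1.80 ± 0.23 (adjusted p = 0.00556). Both genes were called whichever array was left out.

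Tcf7, which encodes TCF-1, a factor that keeps T cells stem-like, was at 2.61 and 2.47 against 3.40 and 3.51, a tight separation with a small difference of -0.92 ± 0.15. Dapl1 and Nsg2, both known as transcripts of naive T cells, changed by -1.37 ± 0.25 and -0.97 ± 0.18. Without ovarian replicate 2 the calls of Tcf7 (adjusted p = 0.0604), Dapl1 (0.118) and Nsg2 (0.136) ended, and without splenic replicate 1 that of Dapl1 (0.0612). Ccr7, the lymph node homing receptor, had 4.16 and 3.12 against 4.74 and 4.70 and did not pass (-1.08 ± 0.27, adjusted p = 0.0734). Neither did S1pr1, the egress receptor (-0.73 ± 0.31), nor Klf2, its activator (-0.69 ± 0.25).

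**Figure D1:**
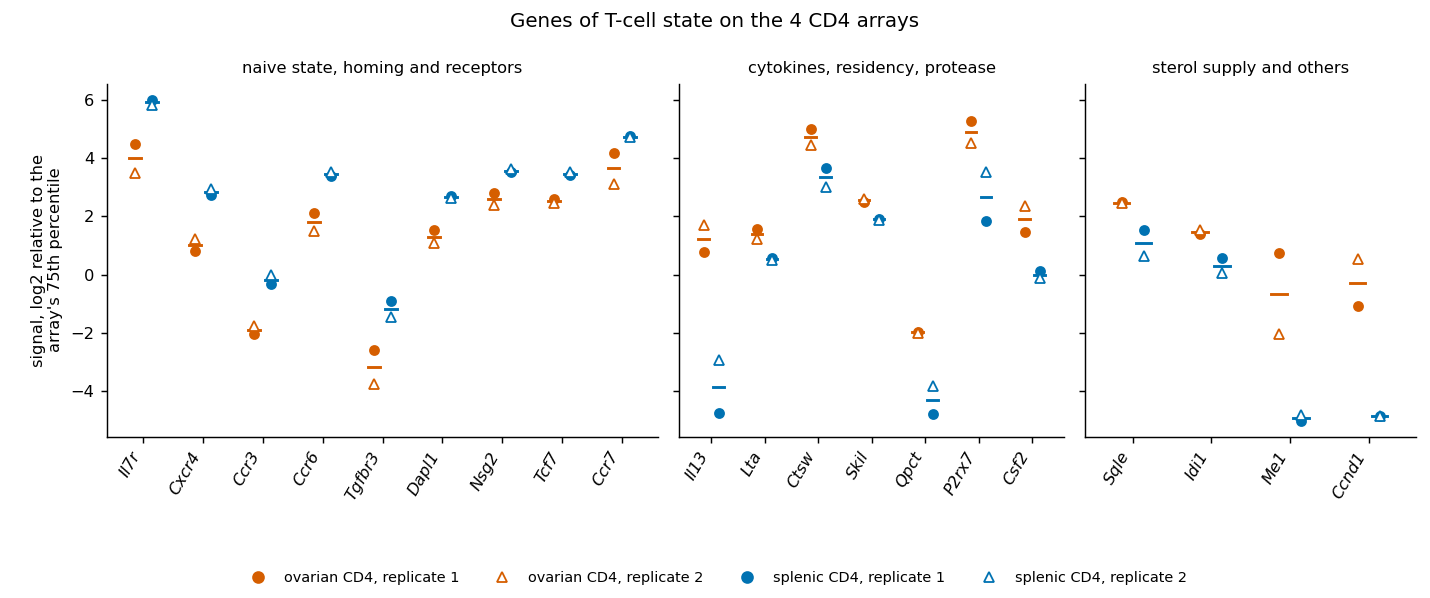
Level of genes of T-cell state on each of the 4 CD4 arrays (log2 relative to the array's 75th percentile); filled circles are replicate 1, open triangles replicate 2, and short bars group means (n = 2). Il7r lies at 4.47 and 3.49 in the ovary and 6.00 and 5.82 in the spleen, and Ccr7 and Csf2 are shown although they did not pass the threshold.

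Among 12 chemokine receptor genes, 2 fell. Ccr6, a receptor of memory and T helper 17 cells, stood at 2.11 and 1.5 against 3.37 and 3.52 (-1.64 ± 0.35, adjusted p = 0.043), and Ccr3, a receptor for eotaxins, at -2.02 and -1.76 against -0.33 and -0.01 (-1.72 ± 0.31, adjusted p = 0.0216). Both pairs were separated, but Ccr6 lost its call without ovarian replicate 2 (adjusted p = 0.231) or splenic replicate 1 (0.0818), and Ccr3 without ovarian replicate 1 (0.0605) or replicate 2 (0.0536). Ccr9, the gut-homing receptor, had 3.38 and 2.23 in the ovary against 0.78 and -0.04, a separated difference of 2.44 ± 0.64 that did not pass (adjusted p = 0.0865). The receptors of inflamed tissue Cxcr3 and Cxcr6 ranged from 5.82 to 7.18 over all 4 arrays and differed by 0.13 ± 0.34 and 0.75 ± 0.24 (adjusted p = 0.905 and 0.137).

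Of 25 cytokine receptor genes 2 fell, Il7r and Tgfbr3, a co-receptor for transforming growth factor beta (-2.00 ± 0.37, adjusted p = 0.023; well above background on 1 of 2 ovarian arrays). Tgfbr3 passed the background filter through the spleen alone, so this count leans downward. Without ovarian replicate 2 the value of Tgfbr3 was -1.43 (adjusted p = 0.119), and without splenic replicate 1 it was -1.73 (0.0813).

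Of 23 T-cell cytokine genes 2 rose in the ovary, Il13 and Lta, and 0 fell (median difference 0.32). Il13 passed the background filter through the ovary alone, so the count of rises leans upward. Il13, a type 2 cytokine that acts on epithelium and macrophages, stood at 0.77 and 1.70 in ovarian cells. Its probe was not well above background on either splenic array (-4.76 and -2.94), which puts the ovarian level at least 22.2-fold higher. This bound sets the ovarian mean against the dimmest probe still detected on each splenic array (limma adjusted p = 0.00259). Lta, lymphotoxin alpha, was at 1.55 and 1.24 against 0.56 and 0.51, a small separated rise of 0.86 ± 0.14 (adjusted p = 0.0166). Both were called whichever array was left out.

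Of 13 genes of the type 2 program, Il13 alone was called by limma, and 3 had an unadjusted p under 0.05. Because Il13 passed the filter through the ovary alone, this count leans upward too. Il4, its neighbour on chromosome 11 in the RefSeq order, ranged from -2.21 to -0.26 in the ovary and from -1.34 to -0.54 in the spleen, so the groups overlapped (-0.29 ± 0.74, adjusted p = 0.902). Gata3, the transcription factor of T helper 2 cells, was within 4.37 to 4.67 on all 4 arrays (0.15 ± 0.20). Il1rl1, the receptor for interleukin 33, had 3.20 and 2.71 against 2.40 and 2.36 (0.58 ± 0.46, adjusted p = 0.566).

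The other effector cytokines did not pass. Csf2, which encodes GM-CSF, stood at 1.48 and 2.35 against 0.14 and -0.13, separated by over 1 unit, with a difference of 1.91 ± 0.43 just outside the threshold (adjusted p = 0.0532). Ifng, the T helper 1 cytokine, stood at 5.42 and 7.01 in ovarian and 5.36 and 6.13 in splenic cells, and differed by 0.47 ± 0.66 (adjusted p = 0.791). Tnf differed by 1.18 ± 0.40 (adjusted p = 0.164), Il2 by 0.19 ± 0.52 and Il10 by 0.17 ± 0.61. A 2-fold rise lies within 2 standard errors of the values of Ifng, Il2 and Il10, so these arrays do not show that the tissues are alike.

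Of 17 cytotoxic genes 1 rose, Ctsw, a lymphocyte protease, at 5.01 and 4.46 against 3.65 and 3.02 (1.40 ± 0.26, adjusted p = 0.0229; 0.0729 without ovarian replicate 1). Gzmb and Gzma, granule proteases, differed by 0.40 ± 0.47 and 0.66 ± 0.87, and Prf1, perforin, by -0.46 ± 0.18. Of 22 genes associated with tissue residency 3 rose, Skil, P2rx7 and Qpct, and 0 fell (median difference 0.24). Qpct passed the background filter through the ovary alone, so this count leans upward. Skil, a repressor of transforming growth factor beta signalling, was at 2.51 and 2.61 against 1.91 and 1.88 (0.66 ± 0.14, adjusted p = 0.0354). P2rx7, an ATP-gated channel, was at 5.25 and 4.52 against 1.83 and 3.50 (2.22 ± 0.46, adjusted p = 0.0383), while its 2 other probes differed by 0.65, with overlapping groups, and by 1.0. Qpct, which cyclises the ends of chemokines, was at least 2.39-fold higher (adjusted p = 0.028). These 3 calls ended without ovarian replicate 1, ovarian replicate 2 or splenic replicate 1, when adjusted p ran from 0.0543 to 0.154, and P2rx7 was then down to 1.38 without splenic replicate 1. Cd69, an early activation and retention marker, overlapped between tissues (2.39 and 4.22 against 2.85 and 3.72).

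Receptors and factors that define T-cell restraint and lineage gave 0 limma calls. At an unadjusted p under 0.05 they gave 2 of 19 inhibitory receptors (list median -0.02), 1 of 13 costimulatory genes (-0.07), 1 of 13 regulatory T-cell genes (0.12) and 3 of 18 helper lineage factors (0.15). Pdcd1, the PD-1 receptor, lay between 4.99 and 5.52 on all 4 arrays (0.20 ± 0.35), Ctla4 between 2.37 and 3.19 (-0.14 ± 0.51), and Foxp3, the regulatory lineage factor, between 2.56 and 3.72 (-0.09 ± 0.44). Tbx21, the T helper 1 factor, had 5.0 and 4.87 against 4.55 and 3.90 (0.71 ± 0.41, adjusted p = 0.393). Id2 shows how splenic replicate 1 entered some values: its level was 6.11, 6.08 and 5.67 on the other 3 arrays and 0.04 there, and the difference of 3.24 ± 1.16 did not pass.

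**Figure D2:**
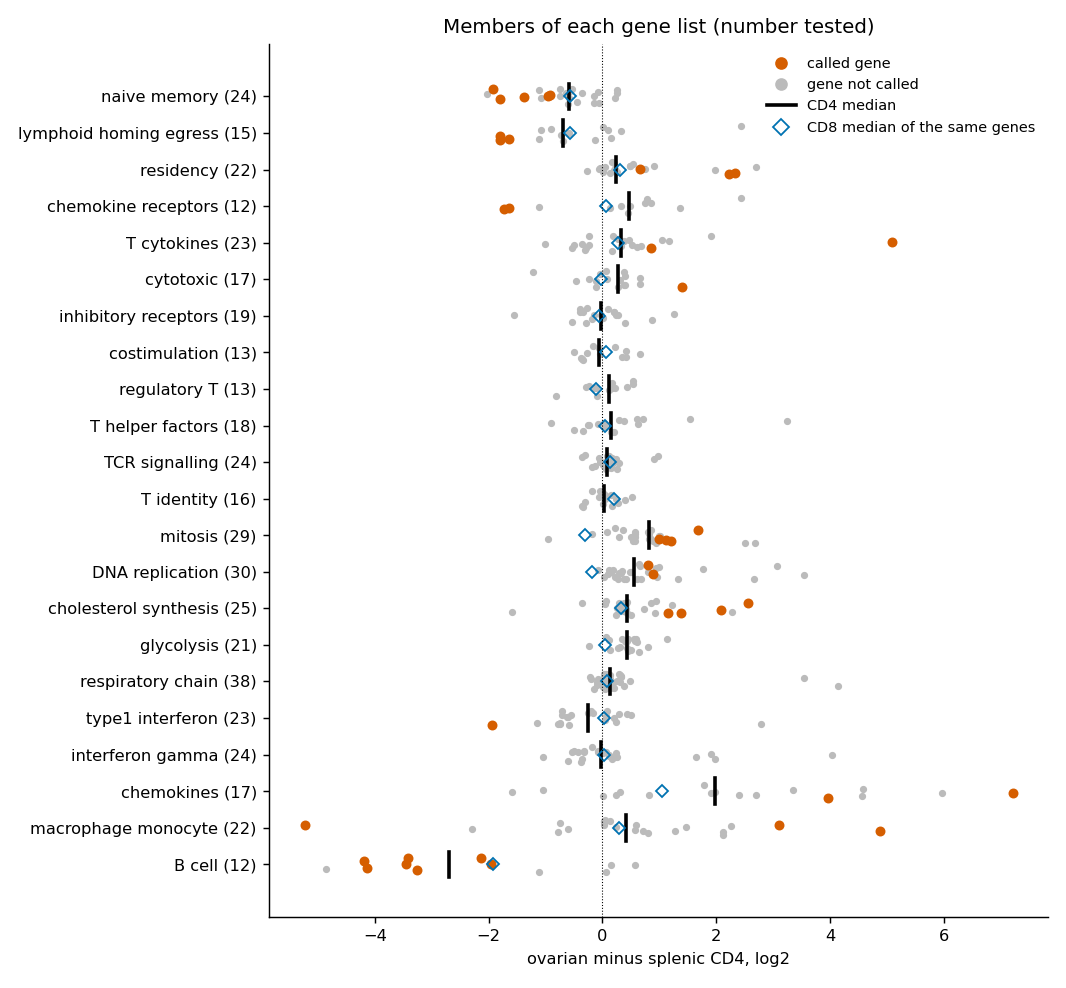
Difference between ovarian and splenic CD4 cells (log2) for each tested member of 22 gene lists, with called genes in orange, uncalled genes in grey, the list median as a black bar and the median of the same genes in CD8 cells as a blue diamond. Medians run from -2.70 for B-cell genes to 1.99 for chemokines, both lists with members that passed the background filter through a single tissue. Those of naive and memory genes are -0.60 in CD4 and -0.57 in CD8 cells.

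Most cell-cycle transcripts had values above 0 in CD4 cells, ovary minus spleen, and values below 0 in CD8 cells. Of 29 mitotic genes 4 rose, Ccnb2, Birc5, Racgap1 and Ube2c, and 0 fell. The list median was 0.81 and 27 of 29 values were above 0, whereas the CD8 median was -0.31 with 2 of 29 above 0. Of 30 DNA replication genes 2 rose, Rfc5 and Lig1 (list median 0.56, CD8 -0.18).

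Ccnb2, cyclin B2, which drives entry into mitosis, stood at 4.23 and 4.53 in the ovary and at 3.58 and 3.20 in the spleen (0.99 ± 0.19, adjusted p = 0.0306). Ube2c, the ubiquitin-conjugating enzyme of the anaphase-promoting complex, stood at 2.35 and 2.74 against 1.57 and 1.29 (1.12 ± 0.24, adjusted p = 0.0462), and Racgap1, needed for cytokinesis, at 2.99 and 3.30 against 1.57 and 2.30 (1.21 ± 0.25, adjusted p = 0.0392). On these probes both ovarian arrays lay above both splenic ones. A further probe of Racgap1 overlapped, with 1.95 and 2.30 against 2.05 and 1.5 (a difference of 0.35), and 1 of Ube2c differed by 0.69. Birc5, survivin, was measured on 1 ovarian array (5.57) against 3.40 and 4.38 in the spleen, and differed by 1.68 ± 0.33, against 0.84 and 0.59 for its other probes. Mki67, the common proliferation marker, overlapped between the tissues, with 4.82 and 5.13 against 5.06 and 4.17 (0.36 ± 0.27, adjusted p = 0.537). Rrm1, a ribonucleotide reductase subunit, had 2.73 and 2.89 against -2.03 and 1.5, one of the larger differences in the replication list, which rested on the low splenic replicate 1 and did not pass. Rfc5, a clamp loader subunit, and Lig1, the replicative DNA ligase, rose by 0.88 ± 0.17 and 0.80 ± 0.18.

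These calls were sensitive to single arrays. Without ovarian replicate 2, those of Ccnb2 (adjusted p = 0.164), Racgap1 (0.191), Ube2c (0.233), Rfc5 (0.133) and Lig1 (0.216) ended, and Birc5 has no value. Without splenic replicate 1 the call of Racgap1 ended (0.122), as did those of Ube2c (0.0634), Rfc5 (0.0636) and Lig1 (0.0552), and without splenic replicate 2 those of Ube2c (0.0574) and Lig1 (0.0564). Lig1 lost its call without ovarian replicate 1 too (0.06). The median level of the 29 mitotic genes was 1.72 and 1.97 on the ovarian and 1.57 and 1.16 on the splenic arrays, so that the list median of the differences was 0.19 on slide 1 and 1.19 on slide 2. The part of the dim replicate 2 arrays in the size of this difference was not tested. With any single array left out the mitotic list median lay between 0.38 and 1.02, and without ovarian replicate 2 the list had 0 genes that rose and 1 that fell by limma.

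The difference between the subsets was itself tested as the tissue difference in CD4 minus that in CD8 cells. It was above 0 for 27 of 29 mitotic and 30 of 30 replication genes, against 6045 of the 11710 features with a symbol, and 0 members of either list passed by limma (smallest adjusted p 0.062 for Ccnb2 and 0.0866 for Rfc5). At an unadjusted p under 0.05 there were 19 mitotic and 15 replication genes, against 1317 of all 11710. In group means the median mitotic level was 1.96 in ovarian and 1.37 in splenic CD4 cells, 2.38 in ovarian and 3.36 in splenic CD8 cells, and -0.40 in splenic CD4 cells after syngeneic transplantation. Splenic CD8 cells after syngeneic transplantation had -0.77, so both syngeneic groups lay below the 4 allogeneic ones.

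**Figure D3:**
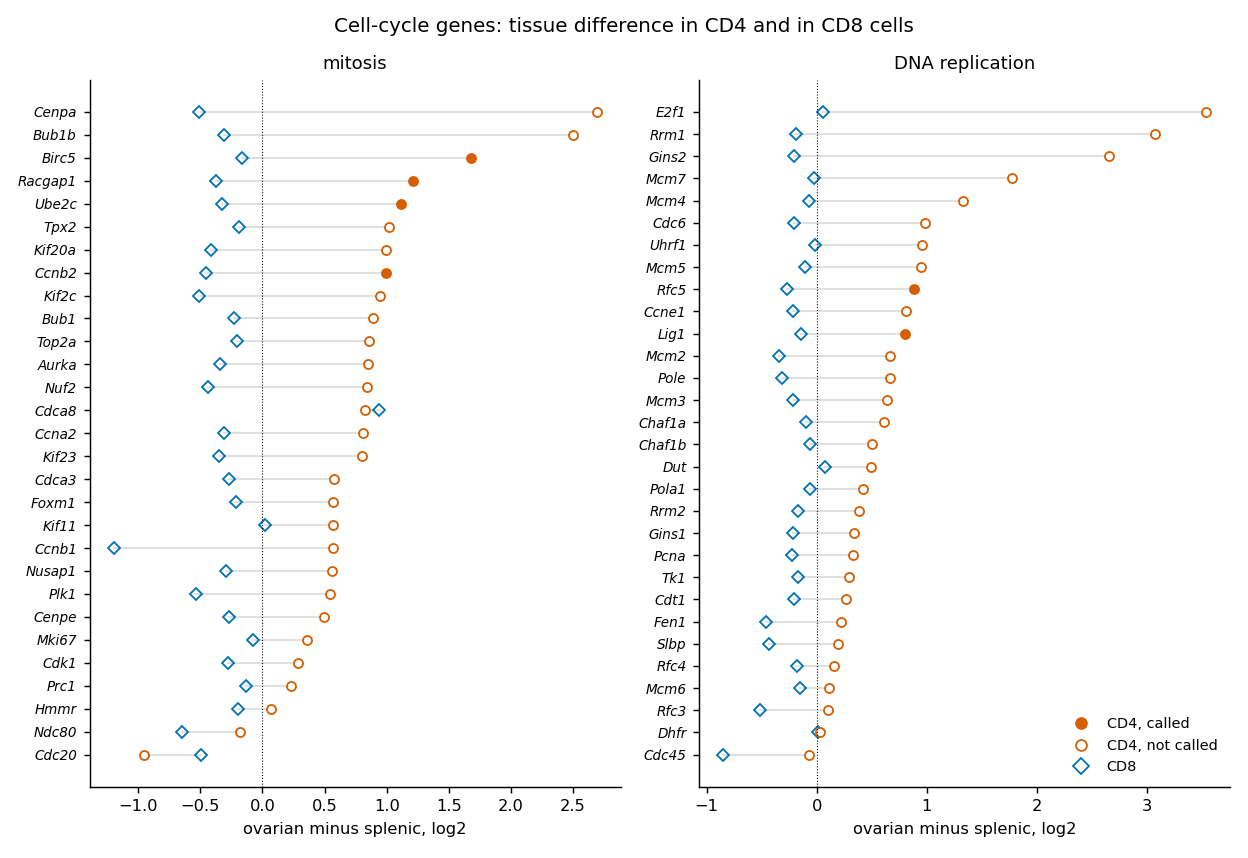
Tissue difference (ovary minus spleen, log2) of each tested mitotic (left) and DNA replication gene (right) in CD4 cells (orange circles, filled where called) and in CD8 cells (blue diamonds). CD4 circles lie right of the CD8 diamonds for 27 of 29 mitotic and 30 of 30 replication genes.

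Mitotic promoters commonly hold several CCAAT boxes, bound by the factor NF-Y, and a CHR element, TTTGAA. Of 25 tested mitotic genes with a RefSeq promoter entry (GRCm38.p6), 20 (80.0%) held CCAAT on either strand in the 250 bases before a start site and 9 (36.0%) held TTTGAA, against 37.5% and 18.3% of all 27025 genes in the table. The upstream bases of 3 genes that rose are shown because they carry these letters at different spacing, with every match on either strand in capitals (CCAAT reads ATTGG and TTTGAA reads TTCAAA on the other strand). Ccnb2 lies on chr9:70421555-70421804 (minus strand), Ube2c on chr2:164769679-164769928 (plus strand) and Racgap1 on chr15:99651657-99651906 (minus strand), each sequence being read 5′ to 3′ and ending at the base before the start.
Ccnb2: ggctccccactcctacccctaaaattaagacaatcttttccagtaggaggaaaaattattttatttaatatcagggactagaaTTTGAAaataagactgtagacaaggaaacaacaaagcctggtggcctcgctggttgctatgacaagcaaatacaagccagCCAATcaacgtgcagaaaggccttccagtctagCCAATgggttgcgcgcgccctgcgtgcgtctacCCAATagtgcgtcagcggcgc
Ube2c: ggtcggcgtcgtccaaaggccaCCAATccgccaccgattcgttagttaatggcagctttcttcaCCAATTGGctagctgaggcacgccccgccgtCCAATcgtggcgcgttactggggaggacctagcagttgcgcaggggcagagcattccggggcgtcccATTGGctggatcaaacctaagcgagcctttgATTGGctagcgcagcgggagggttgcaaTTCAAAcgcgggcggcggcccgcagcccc
Racgap1: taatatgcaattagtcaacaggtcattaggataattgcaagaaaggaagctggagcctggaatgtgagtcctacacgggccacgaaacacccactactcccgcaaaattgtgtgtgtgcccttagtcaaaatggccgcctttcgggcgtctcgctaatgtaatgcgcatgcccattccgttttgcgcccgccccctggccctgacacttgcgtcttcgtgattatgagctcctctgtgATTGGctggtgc
Ccnb2 held 3 CCAAT boxes, with their first bases at 87, 54 and 21 bases before the start and so evenly spaced, and 1 TTTGAA at 167. Ube2c held 6 CCAAT boxes over both strands, those at 186 and 183 overlapping, and 1 TTTGAA read on the other strand at 29. Racgap1 held 1 CCAAT box, at 12, and no TTTGAA. The matches describe the letters and do not show that a factor was bound in these cells. The 250 bases before the start of Birc5 held neither motif.

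Some genes of sterol synthesis and uptake rose in the ovary. Of 25 tested 4 rose, Sqle and Idi1 among them, and 0 fell. The list median was 0.42 with 23 of 25 values above 0, and in CD8 cells it was 0.32. These genes are the usual targets of the sterol sensor SREBP2.

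Sqle, squalene epoxidase, had 2.47 on both ovarian arrays against 1.53 and 0.65 on the splenic arrays (1.38 ± 0.25, adjusted p = 0.0213). Idi1, isopentenyl diphosphate isomerase, had 1.41 and 1.52 against 0.56 and 0.06 (1.15 ± 0.20, adjusted p = 0.0182). Without ovarian replicate 2 the calls of Sqle (adjusted p = 0.0724) and Idi1 (0.0709) ended, with values of 1.38 and 1.1. In both genes the 2 ovarian arrays were close together and the spleen varied more.

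The splenic CD4 cells of allogeneic recipients were the low group for both: after syngeneic transplantation the mean levels in splenic CD4 cells were 2.78 for Sqle and 1.86 for Idi1. The ovarian means of Sqle and Idi1 lay between those of the 2 splenic groups. These comparisons share the splenic allogeneic arrays and are given as levels only. Of 18 tested sterol genes with a promoter entry, 17 (94.4%) held CCAAT in the 250 bases before a start, against the 37.5% of all genes given above, and 1 (5.56%) held TCACNCCAC, a sterol regulatory element, against 1.22%. Idi1 is shown as the sterol gene that rose and has an entry, on chr13:8885356-8885605 (plus strand), with 2 CCAAT boxes in the reverse direction at 45 and 14 bases before the start, in capitals.
Idi1: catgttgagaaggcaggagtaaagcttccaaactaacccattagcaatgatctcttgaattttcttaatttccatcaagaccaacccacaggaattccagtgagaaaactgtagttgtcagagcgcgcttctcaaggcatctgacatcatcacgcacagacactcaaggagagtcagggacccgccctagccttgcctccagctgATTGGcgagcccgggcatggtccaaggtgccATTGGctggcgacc

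Me1, malic enzyme, which supplies NADPH for lipid synthesis, was at least 5.98-fold higher (0.73 and -2.04 in the ovary; not well above background in the spleen; adjusted p = 0.0186, or 0.0553 without splenic replicate 1), the 1 call among 12 fatty acid synthesis genes. Me1 passed the background filter through the ovary alone, so this count leans upward. Of 21 glycolysis genes 0 passed by limma and 9 had an unadjusted p under 0.05. Of the same 21, 20 had a value above 0 (median 0.44, CD8 0.04). Gapdh had 8.11 and 8.03 against 7.59 and 7.34 (0.61 ± 0.16, adjusted p = 0.0849) and Ldha, lactate dehydrogenase, 8.17 and 8.35 against 7.74 and 7.5 (0.64 ± 0.19, adjusted p = 0.122). Both were separated by less than 1 unit. Of 38 respiratory chain genes 0 passed by limma and 4 had an unadjusted p under 0.05 (median 0.13). Of 23 type I interferon response genes 1 fell, Irf7, the amplifier of that response, at -1.79 and -0.04 against 1.26 and 0.78 (-1.93 ± 0.39, adjusted p = 0.0344). Without ovarian replicate 1 the value of Irf7 was -1.06, and without splenic replicate 1 its call ended (adjusted p = 0.106). The list median was -0.25, against 0.04 in CD8 cells.

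The largest rises in the ovary included transcripts better known from cells other than T cells. In sorted bulk samples a change in the number of such cells and a change in the RNA per cell cannot be told apart. The 12 largest rises among symbols with separated arrays were Ccl7, Htra1, Retnla, Hsd3b1, Il13, Trem2, Ccnd1, Clu, Me1, Pcp4l1, Hspb1 and Ccl12.

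Of 17 chemokine genes 2 rose, Ccl7 and Ccl12, and 0 fell (median 1.99, CD8 1.04). Ccl7, Ccl12 and Ccl2 passed the background filter through the ovary alone, so this count and median lean upward. Ccl7 and Ccl12 attract monocytes and lie in 1 cluster with Ccl2, Ccl11 and Ccl8 on chromosome 11. Ccl7 stood at 0.61 and 3.16 in the ovary, was not well above background in the spleen and was at least 34.8-fold higher (adjusted p = 0.00146). Ccl12 had 0.86 and 2.27 against -2.28 and -2.51 (3.96 ± 0.44, adjusted p = 0.00263), and both were called whichever array was left out. Ccl2, their neighbour, had 1.04 and 3.81 against -3.63 and -0.68, separated, but its difference of 4.58 ± 1.14 did not pass (adjusted p = 0.0727). Each of these 3 was higher on ovarian replicate 2 than on replicate 1.

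Of 22 macrophage and monocyte genes 2 rose and 1 fell. Both genes that rose were not well above background in the spleen and passed the filter through the ovary alone. The count of rises therefore had to lean upward. Trem2, a lipid receptor of macrophages, was at least 21.0-fold higher (-0.43 and 2.74 in the ovary) and Gpnmb, a lysosomal membrane protein, at least 3.08-fold (-2.51 and -0.71). Outside this list, Retnla, resistin-like alpha, a secreted product of alternatively activated macrophages, stood at -1.01 and 4.49, a spread of over 5 units between the 2 ovarian arrays, against -3.74 and -4.58. Its difference of 5.90 ± 1.25 was down to 3.15 without ovarian replicate 2 (adjusted p = 0.085), and without splenic replicate 2 its adjusted p was 0.0504. Without ovarian replicate 2 the calls of Trem2 (adjusted p = 0.0618) and Gpnmb (0.0694) ended too, and without splenic replicate 1 the adjusted p of the 3 genes ran from 0.0571 to 0.0771.

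Cd5l, a protein secreted by macrophages of spleen and liver, fell: -2.49 and 0.84 against 4.72 and 4.10 (-5.23 ± 1.08, adjusted p = 0.037; -3.57 without ovarian replicate 1, adjusted p = 0.111, and adjusted p = 0.1 without splenic replicate 1). The defining macrophage markers were above background on all 4 arrays. Csf1r stood at 3.99 and 5.25 in ovarian and 4.66 and 5.78 in splenic cells, Adgre1 at 1.18 and 2.64 against 1.85 and 1.91, and C1qa at 2.64 and 3.43 against 2.34 and 2.14. The summed linear signal of the 24 list genes with a probe was 163 and 356 times the 75th percentile in the ovary and 246 and 225 in the spleen, so that the ovarian arrays spanned the splenic ones. The list median of the differences was -0.19 on slide 1 and 1.29 on slide 2, and -0.19 without ovarian replicate 2. The part of these transcripts in the rise of Ccl7, Ccl12, Trem2, Gpnmb and Retnla was not tested.

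Many B-cell genes fell in the ovary. Of 12 tested 7 fell, Fcmr, Pou2af1, Spib, Fcrla, Cr2 and Cd79b among them, and 0 rose; those not well above background in the ovary passed the filter through the spleen alone, so this count had to lean downward (list median -2.70, or -1.98 with a common signal floor). Cd79b, part of the signalling unit of the B-cell receptor, had 0.60 and 0.30 against 2.62 and 2.21 (-1.96 ± 0.35, adjusted p = 0.0213). Fcmr, the IgM receptor, was not well above background in the ovary, stood at -0.42 and -0.14 in the spleen and was at least 7.82-fold higher there (adjusted p = 0.0127). The plasma cell gene Mzb1 was at least 13.2-fold higher in the spleen, and its call ended when any array was left out (adjusted p from 0.0528 to 0.117). It was the 1 call among 5 plasma cell genes, 3 of which passed the filter through the spleen alone. Fcrla, too, lost its call with any array left out (0.0502 to 0.122). Cd79b, Cr2 and Spib lost their calls without ovarian replicate 2 or splenic replicate 1, Spib without ovarian replicate 1 too, and Pou2af1 without ovarian replicate 2 (adjusted p from 0.0553 to 0.177 over these). The summed signal of the 17 B-cell list genes with a probe was 30.0 and 40.4 in the ovary and 41.0 and 43.3 in the spleen. The part of these transcripts in the fall of receptors that B cells share with T cells, such as Cxcr4 and Ccr6, was not tested.

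**Figure D4:**
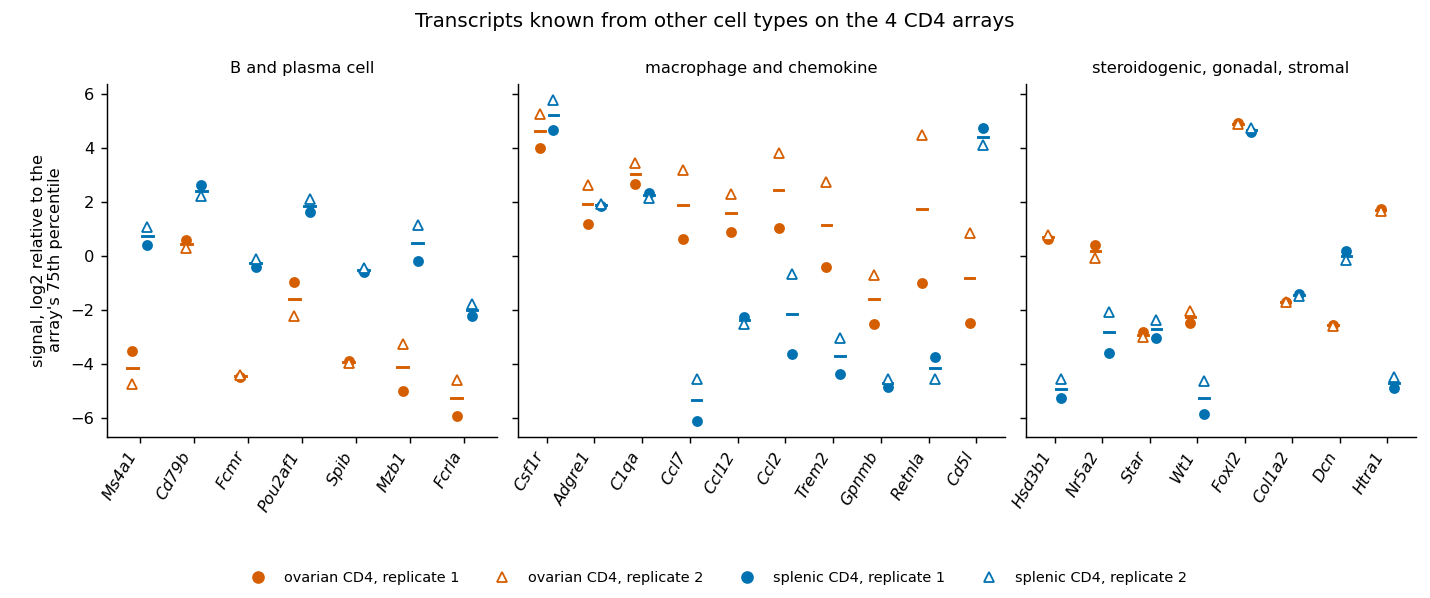
Level of transcripts known from B and plasma cells, macrophages and ovarian or stromal cells on each of the 4 CD4 arrays (log2 relative to the array's 75th percentile; filled circles replicate 1, open triangles replicate 2, short bars group means). Hsd3b1 lies at 0.62 and 0.76 in the ovary, whereas Foxl2 lies between 4.58 and 4.91 on all 4 arrays.

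Steroid and gonadal transcripts also stood apart. Hsd3b1, the dehydrogenase that makes progesterone, was at 0.62 and 0.76 in the ovary, was not well above background in the spleen and was at least 15.2-fold higher (adjusted p = 0.00222). Wt1, which encodes the Wilms tumour protein needed to form the gonad, was at least 1.95-fold higher, and both were called whichever array was left out. Nr5a2, a nuclear receptor that controls steroid synthesis, had 0.40 and -0.08 against -3.59 and -2.07 (2.99 ± 0.50, adjusted p = 0.0163; 0.0535 without splenic replicate 1). Of 7 granulosa genes tested Wt1 and Nr5a2 rose (list median 2.99, or 1.03 with a common signal floor), and of 10 theca, luteal and steroid genes Hsd3b1 and Nr5a2 rose (median 0.35). Of those 7 granulosa genes 4 were not well above background in the spleen and passed the filter through the ovary alone, so this count and median had to lean upward. Hsd3b1 passed the filter through the ovary alone too, so the theca, luteal and steroid count also leans upward. Other defining markers gave no call. Fshr, Cyp19a1 and Amh of granulosa cells and Zp2 and Zp3 of oocytes were not well above background on any of the 4 arrays. Gdf9 of oocytes was above it on 1 ovarian and 1 splenic array. Star lay between -3.05 and -2.38 on all 4, and Cyp11a1 was above background on ovarian replicate 1 alone (-0.33). Cyp17a1, a steroid cell marker, was well above background on all 4, at 3.76 and 3.94 in the ovary and 3.44 and 4.68 in the spleen. Foxl2, known from granulosa cells, lay between 4.58 and 4.91 on all 4 arrays, splenic ones included. The summed signal of the 17 theca and luteal list genes with a probe was 49.2 and 39.6 in the ovary and 29.8 and 46.1 in the spleen. Granulosa genes summed to 32.8 and 33.7 against 24.8 and 27.5, and stromal genes to 235 and 189 against 174 and 138. Ovarian surface epithelium genes summed to 4 and 4.56 against 2.45 and 1.86. The granulosa, stromal and epithelial sums were thus higher on both ovarian arrays. The oocyte sum was lower (1.35 and 1.45 against 2.22 and 1.8), and the endothelial sum overlapped (10.9 and 33.4 against 22.1 and 41). The part of ovarian cells in the rise of Hsd3b1, Wt1 and Nr5a2 was not tested.

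The remaining large rises were Htra1, a secreted protease (at least 30.4-fold), Clu, clusterin (at least 7.86-fold), Hspb1, a small heat shock protein (at least 9.13-fold), Pcp4l1 (at least 4.48-fold) and Ccnd1, cyclin D1, which links growth signals to the cell cycle. In splenic CD4 cells after syngeneic transplantation the mean of Ccnd1 was 0.325, above its ovarian mean of -0.279, so the allogeneic spleen was the low group. Ccnd1 had -1.09 and 0.53 in the ovary, was not well above background in the spleen and was at least 7.76-fold higher (adjusted p = 0.0163, or 0.0774 without ovarian replicate 2). Without splenic replicate 1, Htra1 (adjusted p = 0.0822), Clu (0.125), Hspb1 (0.0827) and Pcp4l1 (0.053) lost their calls, as did Htra1 (0.0667), Clu (0.0979) and Hspb1 (0.0688) without ovarian replicate 1, and Htra1 (0.108) and Clu (0.0863) without ovarian replicate 2.

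The 12 largest falls included Cd5l, Mzb1, Fcmr, Adamdec1, Slc16a9, Pou2af1, Spib, Dysf, Fcrla, Stab2 and Atp1b1. Stab2, a scavenger receptor of sinusoidal endothelium, had -1.79 and -1.96 against 1.57 and 1.12 (-3.22 ± 0.46, adjusted p = 0.0091), Adamdec1, a secreted metalloprotease-like protein, was at least 12.4-fold higher in the spleen, and Atp1b1, a sodium pump subunit, changed by -3.14 ± 0.37 (above background on 1 of 2 ovarian arrays). These 3 were called whichever array was left out. Slc16a9, a transporter, and Dysf, a membrane repair protein, were at least 3.60-fold and 4.00-fold higher in the spleen. Both lost their call without ovarian replicate 1 (adjusted p = 0.0994 and 0.062) or splenic replicate 1 (0.0668 and 0.0505). Slc4a1, the anion exchanger of red cells, and Dcn, decorin, a matrix proteoglycan, fell as well (adjusted p = 0.0438 and 0.0296), and each lost its call without ovarian replicate 1, ovarian replicate 2 or splenic replicate 1 (0.062 to 0.136). Globin transcripts varied widely between replicates: Hba-a2, a near-identical copy of Hba-a1 whose probes may not be told apart, stood at -2.25 and 5.04 in the ovary and at 6.34 and 4.88 in the spleen (-4.22 ± 2.57).

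The same tissue contrast in CD8 cells, measured on 4 ovarian and 3 splenic arrays of their own, gave 93 calls (0.452%), 45 higher (0.219%) and 48 lower (0.233%). Of the 292 features called in CD4 cells 39 were called in CD8 cells too (13.4% of the CD4 and 41.9% of the CD8 calls), 20 of them higher and 19 lower in both. Both contrasts share the spread of each feature from the same limma fit, so a feature with a small spread is called more easily in both. The overlap of calls is therefore not one between independent tests. The sign of the CD8 value matched in 217 of the 292 (74.3%), against 49.1% over all features tested. Genes called in both included Ccl7, Ccl12, Il13, Hsd3b1, Wt1, Me1, Lta, Skil, Sqle and Idi1 among the rises and Cxcr4, Il7r, Ccr6, Tcf7, Dapl1, Nsg2, Fcmr and Cd5l among the falls. The background filter used the CD4 groups only, so detection in CD8 cells was not required. Some CD8 means were low in both tissues: -3.22 (ovary) and -6.60 (spleen) for Ccl7, and -2.61 and -5.96 for Il13. Those of Wt1 were -4.251 and -6.735, and those of Ccl12 were -2.457 and -5.743. Cxcr4 changed by -1.80 in CD4 and -1.69 in CD8 cells, Il7r by -1.93 and -1.21, and Sqle by 1.38 and 1.33.

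The test of the difference between the 2 tissue contrasts called 10 features (0.0486%), 4 higher (0.0194%) and 6 lower (0.0291%) in CD4, of which 3 had a symbol. Ccnd1 and Iqgap3, a scaffold protein of dividing cells, were not well above background on either splenic CD4 array, so their size in CD4 cells is known only as a bound, at least 7.76-fold and 1.88-fold, and their fitted difference between subsets rests on a level that was not measured. Glis1, a zinc finger protein measured on all 4 CD4 arrays, differed by 0.17 in CD4 and -1.62 in CD8 cells and was not itself called in CD4 cells.

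**Figure D5:**
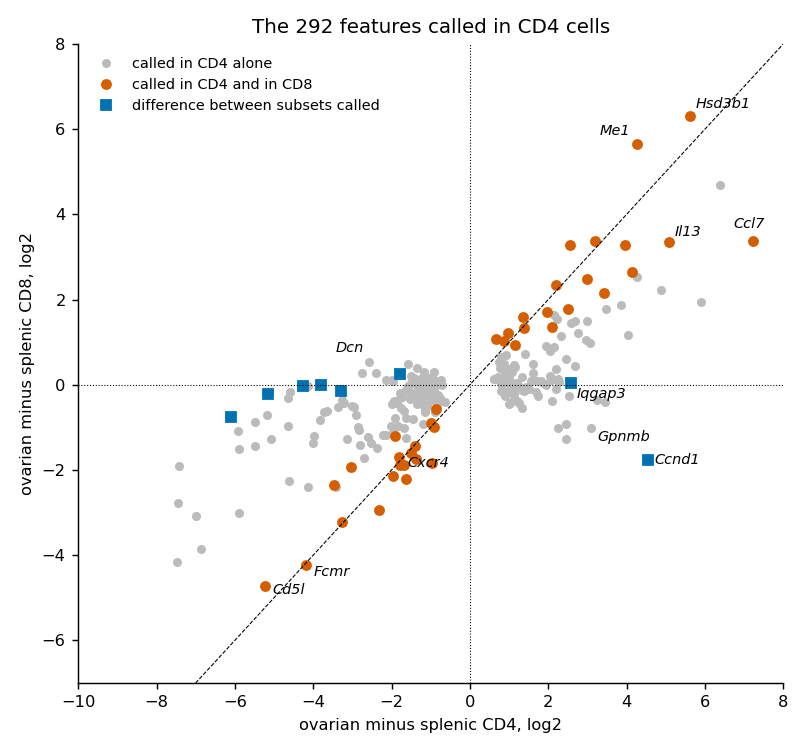
Tissue difference (ovary minus spleen, log2) in CD4 cells (x) and in CD8 cells (y) for the 292 features called in CD4 cells; orange points were called in both subsets, blue squares in the test of the difference between subsets, and the dashed line marks equal values. Cxcr4 lies at -1.80 and -1.69; for genes not well above background in 1 group, such as Hsd3b1, Fcmr and Ccnd1, the plotted fitted value has no measured size and its distance from the line cannot be read.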

How the data were processed

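RNA of sorted T cells was hybridised to Agilent one-colour arrays, 16 arrays in 6 groups on 2 slides. Per the file headers, the deposited intensity per spot is the processed signal of Agilent Feature Extraction 11.5.1.1, background-subtracted and not normalized between arrays. The deposited value table holds log2 values that, set against the scanner files (r of at least 0.99982 per array), are the same signals relative to the 75th percentile and centred per probe; the sources used here give no further step.

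For the present comparison the processed signals were put on a log2 scale relative to the 75th percentile of each array's non-control spots. Control spots and outlier spots were left out, and 0 spots were saturated. Of 55681 probes, 23976 were well above background on both arrays of either compared group. The probe with the highest mean stood for a symbol, and unnamed probes were kept, giving 20585 features. limma 3.58.1 in R 4.3.3 fitted 1 mean per group over 16 arrays (10 residual degrees of freedom, 2.31 prior), with Benjamini-Hochberg adjustment over all features and a threshold of 0.05. A ± value is the standard error of the fitted difference. A gene not well above background on either array of the dimmer group is given as "at least N-fold", against the lowest signal well above background on each of those arrays.

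The number of arrays limits the precision. In simulated data with 200 of 20342 features changed, 23.0% were recovered at a log2 change of 1, 79.5% at 2, 87.5% at 3 and 95.5% at 4. False calls numbered 1, 7, 11 and 5. Each feature had a single spread for all arrays, so the dim CD4 arrays were not made noisier. In the data, detected replicates lay over 3 log2 units apart for 185 features in splenic allogeneic, 49 in ovarian and 27 in splenic syngeneic CD4 cells. The simulated recovery may therefore be too high for this contrast.

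The members and gene lists were chosen with earlier results of these data known. Genes named are the 12 largest rises and falls with separated arrays and the brighter group above background, the called and up to 4 further genes of each list, genes given in any case, and the called symbols of the difference between CD4 and CD8 cells. Neighbouring genes and promoters come from RefSeq (GRCm38.p6). Sqle has no promoter entry used here. Some results are not reported here. Alternatives were other normalizations, filters, blocks, sample sets and each array left out. Replicate numbers match the slides in the compared arrays, but the labels do not say that a number marks a shared batch.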

Additional observations from a re-analysis of the deposited data

Results flagged for a closer look

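The test of the tissue difference in CD4 minus that in CD8 cells called 10 features by limma, each listed here because the 2 cell types differed in the same contrast. The fitted values of Ccnd1 and Iqgap3 rest on splenic CD4 levels not well above background on either array, and have no measured size. Among genes with a symbol, Ccnd1 had a difference between the contrasts of 6.322 (SE 0.94, adjusted p = 0.0401). Its mean level was -0.28 in ovarian and -4.84 in splenic CD4 cells, and -3.22 and -1.45 in CD8 cells. In splenic CD4 cells after syngeneic transplantation it was 0.325. Iqgap3 had 2.524 (SE 0.37, adjusted p = 0.0399), its level being low in splenic CD4 cells (-4.89) and between -2.32 and -2.05 in the other 3 groups of the test. Glis1 had 1.793 (SE 0.23, adjusted p = 0.0336), set by CD8 cells, whose levels were 1.24 in the ovary and 2.86 in the spleen.

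The other 7 are probes with no gene symbol, of which A_55_P2058040, A_55_P2103948, A_52_P382676 and A_30_P01018674 were not well above background on either ovarian CD4 array, so that their values too have no measured size. A_55_P2058040 had the most negative value, -5.331, with mean levels of -4.87 in ovarian and 1.22 in splenic CD4 cells and -5.15 and -4.39 in CD8 cells. A_55_P2103948 had -4.931, A_52_P382676 -4.228, A_66_P140474 -3.798, A_52_P578436 -3.138 and A_30_P01018674 -2.056. In these 6 probes splenic CD4 cells had the highest mean of the 4 groups compared. A_30_P01019010 had 1.802 and was not called in CD4 cells alone (adjusted p = 0.0803).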

How the results depend on the processing

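None of the 57 called genes chosen by the naming rule changed sign under the alternatives in which it had a value. Where both ovarian arrays lie on the same side of both splenic arrays, some alternatives cannot turn the sign. These are leaving out an array, fitting a single slide and fitting the 4 arrays alone. For them the lack of sign changes was fixed in advance. The median of 20 of the 41 gene lists did change sign in at least 1 of 8 settings, mostly lists with a median near 0; the macrophage median was -0.19 without ovarian replicate 2 (0.41 with all arrays), the immediate early and stress median -0.08 (0.36) and the stromal median -0.19 (0.39) without the same array, and the cytotoxic median -0.27 without splenic replicate 2 (0.27). Without splenic replicate 1 the balance of calls turned to 184 higher and 117 lower. All 57 calls held with the slide as a block, with centring on the array median and with a trended robust variance, 55 held under quantile normalization and 54 in the deposited value table. Without a background filter, where 48999 features were tested, 44 of the 57 calls were lost, as were 26 with the replicate block over 16 arrays, 55 with the 6 CD4 arrays alone, and all 57 with array weights, slide 2 alone or the 4 arrays alone. Counts within 1.5 times of 292 included 311 (array median), 253 (deposited value table), 284 (mean of a gene's probes, and the same number with trended robust variance) and 222 (2-fold minimum added).

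Quantile normalization called 476 features (214 higher, 262 lower, 36 in the difference between CD4 and CD8), and normexp with quantile 536 (342 lower, 59 in the difference). A common signal floor gave 604 (230 higher, 374 lower, 137 in the difference). No filter gave 43 (17 higher, 26 lower, 0 in the difference). Requiring all 4 arrays above background gave 118 (50 higher, 68 lower, 1 in the difference), and filtering on any of the 6 groups gave 209 (85 higher, 124 lower) and 6 in the difference. The slide as a block gave 539 (254 higher, 285 lower). Slide 1 alone gave 2395 (1303 higher, 1092 lower, 2000 in the difference) and slide 2 alone 0 by limma (0 higher, 0 lower, 0 in the difference; 2413 at an unadjusted p under 0.05). The 6 CD4 arrays alone gave 11 (2 higher, 9 lower), the 4 compared arrays alone 0 (0 higher, 0 lower; 1016 unadjusted), and array weights 0 (0 higher, 0 lower, 0 in the difference; 1638 unadjusted). Trended robust variance gave 0 in the difference. Without both replicate 2 arrays there were 1548 (1013 higher, 535 lower, 1272 in the difference). With each of the 4 arrays left out in turn the calls ran from 206 to 2173 (44 to 1207 higher, 117 to 966 lower, 39 to 1561 in the difference). The cause of these changes was not tested, other than that the sets without an array hold fewer samples.

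For the pairing by replicate number, deviations from the group means correlated at r = 0.174 between same-numbered arrays. The replicate block called 146 features over 16 arrays (46 higher, 100 lower, 3 in the difference) and 0 over the 4 compared arrays (0 higher, 0 lower; 1585 at an unadjusted p under 0.05).

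Signal over background limits the low values: 77 of the 292 calls had a dimmer group not well above background on either array (40 rose, 37 fell), where only a bound is known. For 29 called symbols with further probes that passed the filter, 33 of those 34 probes had the same sign and 8 exceeded 2-fold.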

Other observations

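Further lists had few or no calls; unadjusted counts are to be read against 2022 of all 11710 features with a symbol. By limma, 0 of 24 genes of T-cell receptor signalling passed and 0 had an unadjusted p under 0.05 (median difference 0.08). Of 25 immediate early and stress genes 0 passed (4 unadjusted, median 0.36, against -0.16 in CD8 cells), and of 19 genes of the unfolded protein response 0 passed (3 unadjusted, median 0.16). The interferon gamma response had 0 calls among 24 genes (5 unadjusted, median -0.03), and survival and death genes 0 among 19 (4 unadjusted, median -0.03).

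Among markers of other cells, 0 of 15 dendritic cell genes (4 unadjusted), 0 of 5 neutrophil genes (2), 0 of 4 mast cell, eosinophil and innate lymphoid genes (0), 0 of 6 natural killer cell genes (1), 0 of 7 endothelial genes (1) and 0 of 5 ovarian surface epithelium genes (2) passed by limma. Ncr1 and Klrb1c of natural killer cells, Epx of eosinophils and Cdh5 of endothelium were not well above background on any of the 4 arrays. Other defining markers were detected: Kdr and Pecam1 of endothelium and Siglech of dendritic cells were well above background on all 4. Kdr stood at 2.84 and 4.93 in the ovary and 4.30 and 5.28 in the spleen, and Siglech at 8.39 and 8.93 against 8.45 and 9.10. The summed signal of the erythroid and platelet list was 3.53 and 51.2 on the ovarian and 121 and 38.1 on the splenic arrays. Of 8 tested genes of that list 1 was called, Slc4a1. It passed the background filter through the spleen alone, so this count leans downward.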
